A study of Mus musculus with 10 samples.

Results

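The genes described here are 10 regulators and markers of fat cell formation, measured by RNA-seq in OP9 stromal cells. They were chosen by symbol, as the genes named Pparg, Cebpa, Cebpb, Cebpd, Fabp4, Lpl, Adipoq, Cd36, Cfd and Dlk1 among the 26888 genes of the deposited table. Of the 10 genes, 9 were found by symbol. Cebpd was found by its gene ID, because the table lists it as AC154586.1, and the gene annotation of the same genome assembly carries that ID as a pseudogene. OP9 is a stromal line from calvaria of (C57BL/6xC3H)F2-op/op mice, called foetal in the labels and newborn in the paper, and all groups carry the op/op mutation. The study compared OP9 cells that had been dispersed with trypsin, reaggregated and kept for 48 h on nitrocellulose filters where liquid meets gas (6 libraries) with OP9 cells kept flat under medium (4 libraries). Reaggregates 2, 4 and 6 received IL-3, at a dose given as 200 µg/µl, and reaggregates 1, 3 and 5 did not. The labels name the de Bruijn laboratory as the source of flat cultures 2 and 4. Flat cultures 1 and 3 carry no source label, nor do the reaggregates, and the Methods name the Medvinsky and de Bruijn groups as sources. No culture time was given for the flat cultures.

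Fat cells form from stromal precursors through a chain of transcription factors. C/EBPβ and C/EBPδ act early and activate the genes of PPARγ and C/EBPα, which then sustain each other and switch on genes for the uptake, transport and storage of fatty acids. OP9 cells are known to turn into fat cells readily in culture, and they lack functional macrophage colony-stimulating factor because of the op mutation.

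Values are RPM, reads per 1e6 reads on genes, and each gene has 1 value per library. Depth ran from 7.35 to 9.43 times 1e6 such reads per library. A floor of 3 reads was chosen for detection, which corresponds to between 0.318 and 0.408 RPM, and libraries also hold values below it. This floor covers counting error only. RPM is not scaled to gene length, so RPM does not rank genes by abundance, and where a gene is named for the highest mean RPM of its list this says only how it was picked. Of the 10 genes, 8 exceeded 0.5 RPM in at least 1 library and were tested. Cfd and Dlk1 did not and were not tested.

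The libraries did not stand evenly apart. Measured as the root mean square difference of log2(RPM + 0.5) over genes, reaggregates with consecutive numbers (1 and 2, 3 and 4, 5 and 6) differed by between 0.282 and 0.291, and the other 12 pairs of reaggregates by between 0.530 and 0.764. The de Bruijn flat cultures differed from each other by 0.505 and the unlabelled flat cultures by 0.725. Between these kinds of flat culture the distance ran from 1.01 to 1.16. Reaggregates lay between 0.685 and 1.17 from the unlabelled flat cultures and between 1.11 and 1.34 from the de Bruijn flat cultures. The distance between flat cultures across source labels thus fell inside the range of those from reaggregates to unlabelled flat cultures, and the members are compared between culture forms with all flat cultures, with the de Bruijn flat cultures alone and with the unlabelled flat cultures alone. These comparisons share the same reaggregates. The p-values measure spread between libraries, part of which may be technical, since no label says that the libraries came from separate cultures.

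Pparg encodes PPARγ, the nuclear receptor that directs fat cell formation. In the reaggregates it ranged from 36.0 to 46.7 RPM with a median of 43.0 RPM, and flat cultures 1 to 4 held 49.4, 395, 58.1 and 295 RPM. All flat cultures were above all reaggregates, but the unlabelled flat cultures lay just above them and the de Bruijn flat cultures far above. Reaggregates averaged 42.3 RPM with an SD of 4.05 (n = 6) and flat cultures 199 RPM with an SD of 173 (n = 4). The log2 fold change of reaggregates over flat cultures was −1.67 (95% interval −2.81 to −0.53, limma adjusted p = 0.0329). An exact two-sided permutation test of the difference of means, with 210 ways to divide the libraries into 6 and 4, gave p = 0.00476, the smallest it can give. The limma call was lost with the unlabelled flat cultures alone, where the log2 fold change was −0.34 (adjusted p = 0.122), while the log2 fold change against the de Bruijn flat cultures alone was −3.00.

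Cebpa encodes C/EBPα, which with PPARγ maintains the fat cell state. Reaggregate values ran from 26.7 to 40.8 RPM with a median of 32.6 RPM, and flat cultures 1 to 4 held 34.9, 188, 64.3 and 119 RPM. The de Bruijn flat cultures were again highest, and the groups overlapped because flat culture 1 lay inside the reaggregate range. The mean over reaggregates was 32.8 RPM with an SD of 4.77 (n = 6), that over flat cultures 102 RPM with an SD of 67.3 (n = 4), and the log2 fold change was −1.36 (95% interval −2.17 to −0.55, limma adjusted p = 0.0190). The exact permutation test gave p = 0.00952. Against the unlabelled flat cultures alone the log2 fold change was −0.54 (limma adjusted p = 0.145), and against the de Bruijn flat cultures alone it was −2.18.

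Cebpb encodes C/EBPβ, an early activator of the cascade that also responds to inflammatory signals. In the reaggregates it ranged from 33.4 to 71.9 RPM with a median of 43.1 RPM, and flat cultures 1 to 4 held 19.1, 21.5, 28.9 and 16.1 RPM. Every reaggregate was above every flat culture, and both kinds of flat culture lay at similar levels. The mean of 48.2 RPM over reaggregates (SD 14, n = 6) was 2.25 times that of 21.4 RPM over flat cultures (SD 5.47, n = 4). The log2 fold change was 1.14 (95% interval 0.64 to 1.64, limma adjusted p = 0.00488), and the exact permutation test gave p = 0.00952. Cebpb was the only tested member with a positive call. With the unlabelled flat cultures alone its log2 fold change was 0.97 (limma adjusted p = 0.0475), short of the fold of 2 that a call requires.

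Cebpd encodes C/EBPδ, the partner of C/EBPβ in the early phase. Its reaggregate values ran from 17.8 to 29.4 RPM with a median of 19.7 RPM, and flat cultures 1 to 4 held 20.4, 5.37, 31.0 and 5.83 RPM. The de Bruijn flat cultures were below all reaggregates, flat culture 1 was inside their range and flat culture 3 above it. The log2 fold change over all flat cultures was 0.81 (limma adjusted p = 0.176; exact permutation p = 0.324) and did not pass the test. Its sign depended on the flat cultures used, with 1.84 against the de Bruijn flat cultures alone and −0.23 against the unlabelled flat cultures alone (limma adjusted p = 0.000179 and 0.550).

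Fabp4 encodes a carrier of fatty acids in the cytoplasm of fat cells, a known target of PPARγ, and is also made by macrophages and some endothelial cells. In the reaggregates it ranged from 19.1 to 44.4 RPM with a median of 24.9 RPM, and flat cultures 1 to 4 held 31.3, 435, 47.2 and 711 RPM. Flat culture 1 lay inside the reaggregate range, flat culture 3 just above it, and the de Bruijn flat cultures were higher by an order of magnitude. Mean levels were 29.3 RPM (SD 10, n = 6) for reaggregates but 306 RPM (SD 328, n = 4) for flat cultures, and the log2 fold change was −2.37 (95% interval −4.05 to −0.69, limma adjusted p = 0.0385; exact permutation p = 0.0190). Against the unlabelled flat cultures alone it was −0.45 (limma adjusted p = 0.361), and against the de Bruijn flat cultures alone −4.29.

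Cd36 encodes a membrane receptor that takes up fatty acids and oxidised lipoproteins. Across the reaggregates it ranged from 1.02 to 9.03 RPM with a median of 7.67 RPM, and flat cultures 1 to 4 held 5.64, 91.5, 7.42 and 109 RPM. Both unlabelled flat cultures lay inside the reaggregate range, and both de Bruijn flat cultures were far above it. Reaggregates 3 and 4, at 1.42 and 1.02 RPM, were well below the other reaggregates. The log2 fold change over all flat cultures was −2.40 (95% interval −4.38 to −0.42), with a limma adjusted p of 0.0648 and an exact permutation p of 0.0714, and was not called. Against the de Bruijn flat cultures alone it was −4.32 and was called (limma adjusted p = 0.00110), and against the unlabelled flat cultures alone it was −0.48 (limma adjusted p = 0.691).

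Lpl encodes lipoprotein lipase, which is secreted and releases fatty acids from circulating triglycerides, and which rises early in fat cell formation. In the reaggregates it ranged from 164 to 558 RPM with a median of 252 RPM, and flat cultures 1 to 4 held 254, 365, 358 and 331 RPM. All flat cultures lay inside the reaggregate range, and the reaggregates themselves fell into low, middle and high pairs. The log2 fold change was −0.20 (95% interval −0.95 to 0.56, limma adjusted p = 0.680; exact permutation p = 0.905).

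Adipoq, the gene of the hormone adiponectin, and Cfd, the gene of the protease adipsin, mark mature fat cells. Adipoq lay between 0.108 and 0.768 RPM in the reaggregates with a median of 0.292 RPM, and flat cultures 1 to 4 held 0, 0.358, 0.240 and 0.121 RPM. Only reaggregates 2 and 4 were clearly above 3 reads, and Adipoq was tested only because these libraries passed 0.5 RPM. The groups overlapped, and a difference was not detectable at this depth (log2 fold change 0.34, limma adjusted p = 0.303; exact permutation p = 0.233). Cfd reached at most 0.136 RPM, was at 0 in 7 libraries and exceeded 3 reads in none. Dlk1 encodes a membrane protein of fat cell precursors that restrains their maturation. It was at 0 in 9 libraries, and flat culture 2 held 0.358 RPM, about the 0.357 RPM that 3 reads are worth there.

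**Figure D1:**
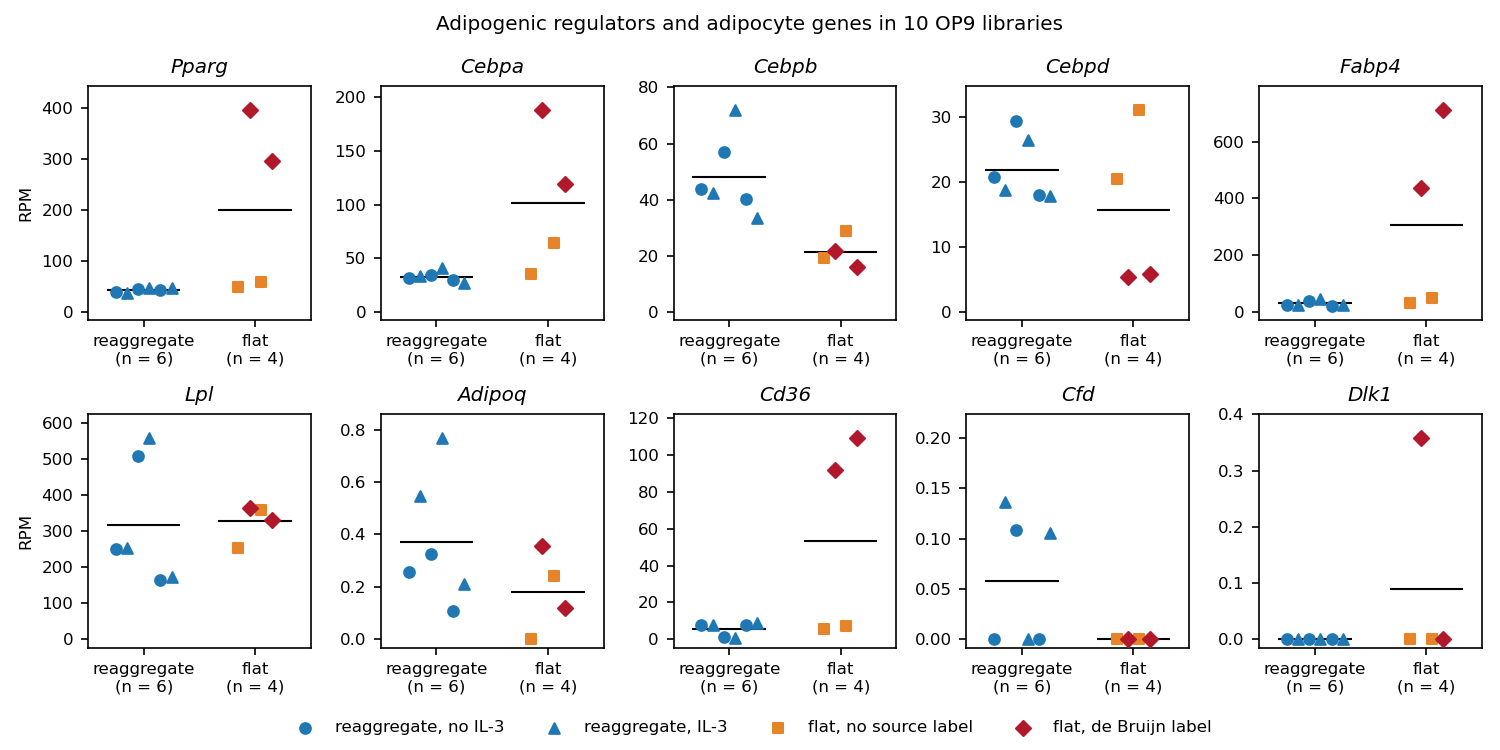
RPM of each of the 10 genes (vertical axis, linear, a scale of its own for each gene) in 6 reaggregates and 4 flat cultures, 1 point per library, with horizontal lines at the group means. For Pparg, Cebpa, Fabp4 and Cd36 the de Bruijn flat cultures (diamonds) lie far above all other libraries, for Cebpd below them, and for Cebpb every reaggregate lies above every flat culture.

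A gene was called at a fold of at least 2 and a limma adjusted p of at most 0.05 over all 16933 genes tested. Among the 8 tested members, 1 was called higher in reaggregates (Cebpb), where 7.32% of all tested genes were, and 3 were called lower (Pparg, Cebpa and Fabp4), where 6.53% were. The groups did not overlap for 2 of the 8 tested members, Pparg and Cebpb, and for 19.1% of all tested genes. The median log2 fold change was −0.78 for the tested members and 0.04 for all tested genes. With the de Bruijn flat cultures alone, 2 members were called higher (Cebpb and Cebpd; 15.2% of all tested genes) and 4 lower (Pparg, Cebpa, Fabp4 and Cd36; 10.5%). With the unlabelled flat cultures alone, limma called 0 members higher (3.70% of all tested genes) and 0 lower (6.17%), while 2 members, Pparg and Cebpb, had an unadjusted p under 0.05 (0.0383 and 0.00818), as did 5844 of all 16933 tested genes (34.5%). The calls of Pparg, Cebpa and Fabp4 therefore rested on the de Bruijn flat cultures, and culture form cannot be told apart from cell source where these cultures decide the value. In whole cultures, fewer cells of a type and less RNA per cell cannot be told apart either.

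When consecutive reaggregates were averaged, limma called 0 members in either direction, beside 1.90% of all tested genes higher and 2.53% lower. The log2 fold changes barely moved, and the adjusted p was 0.0579 for Cebpb, 0.137 for Cebpa, 0.177 for Pparg and 0.186 for Fabp4, and 3 members had an unadjusted p under 0.05, Cebpb, Cebpa and Pparg with 0.00315, 0.0259 and 0.0457, as had 4569 of all 16933 tested genes (27.0%). With averaged pairs the exact permutation test gave p = 0.0286 for Cebpb, the smallest it can give with 3 averaged pairs against 4 flat cultures, and p = 0.171 for Pparg. Leaving out flat culture 2 or flat culture 4 ended the calls of Pparg, Cebpa and Fabp4, with log2 fold changes of −1.16 and −1.30 for Pparg, −0.98 and −1.20 for Cebpa, and −1.85 and −1.61 for Fabp4. Leaving out any reaggregate ended the call of Fabp4, and leaving out reaggregate 1, 2, 3, 4 or 5 that of Pparg. The log2 fold changes in these fits were about as large as with all libraries. They ran from −2.50 to −2.26 for Fabp4 and from −1.70 to −1.63 for Pparg. The call of Cebpb held whichever single library was left out, with log2 fold changes from 1.01 to 1.29.

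**Figure D2:**
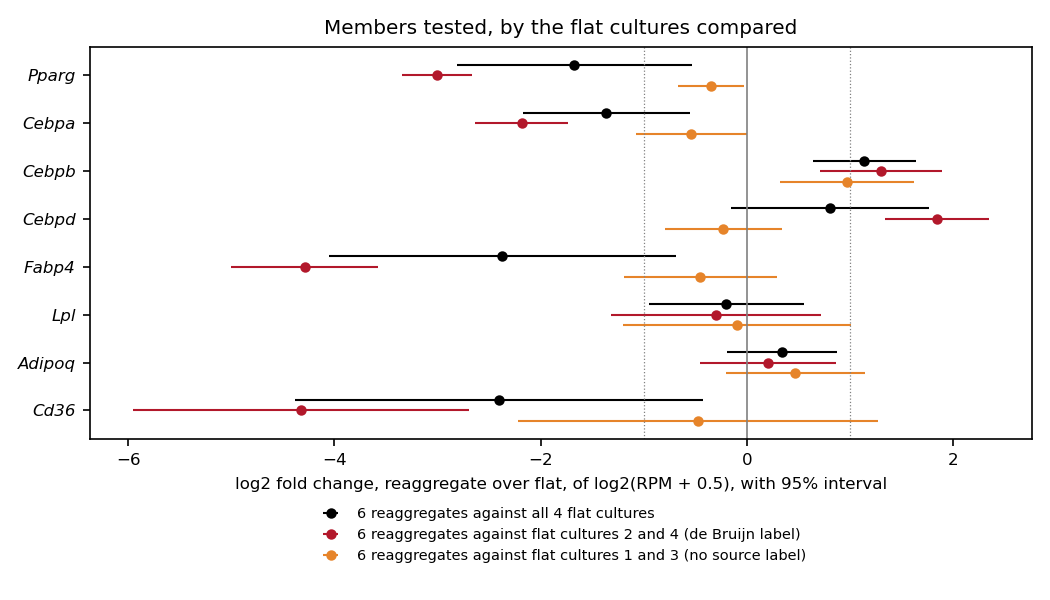
Log2 fold change (horizontal axis, reaggregates over flat cultures on log2(RPM + 0.5)) of the 8 tested members with its 95% interval from limma, for all 4 flat cultures, the de Bruijn flat cultures alone and the unlabelled flat cultures alone. Dotted lines mark a fold of 2. For Pparg the values are −1.67, −3.00 and −0.34, and for Cebpd they are 0.81, 1.84 and −0.23.

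The source labels of the flat cultures were compared directly, with 2 libraries on each side. Pparg averaged 345 RPM in the de Bruijn and 53.8 RPM in the unlabelled flat cultures, a ratio of 6.42 and a log2 difference of 2.66 ± 0.29 (SE, limma adjusted p = 0.0120). Fabp4 averaged 573 and 39.3 RPM, a ratio of 14.6 and a log2 difference of 3.84 ± 0.38 (SE, limma adjusted p = 0.00940). Cd36 averaged 100 and 6.53 RPM, a ratio of 15.4 and a log2 difference of 3.85 ± 0.30 (SE, limma adjusted p = 0.00662). These receptor, carrier and uptake genes were each higher in both de Bruijn cultures than in either unlabelled culture. Cebpd went the other way, at 5.60 and 25.7 RPM, with a log2 difference of −2.07 ± 0.36 (SE, limma adjusted p = 0.0405). Cebpa, with a log2 difference of 1.65, was not called (limma adjusted p = 0.0880; called under quantile normalization, with 0.0287, and with all 10 libraries in 1 fit, with 0.00903), nor was Cebpb, with −0.33 (limma adjusted p = 0.635), nor Lpl, with 0.20 (limma adjusted p = 0.749).

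In this comparison 3 tested members were called higher in the de Bruijn flat cultures, where 1.82% of all tested genes were, and 1 was called lower, where 3.87% were. The median log2 difference was 0.96 for the tested members and −0.17 for all tested genes, and median-ratio scaling moved the latter to −0.04. Leaving out any 1 of the flat cultures ended all 4 calls, but limma then called 0 of all 16933 tested genes in each of the 4 fits, with 1 library alone on its side and assumed to vary like the others. The loss is thus not particular to the members. The log2 differences ran from 2.45 to 2.87 for Pparg, from 3.48 to 4.19 for Fabp4, from 3.66 to 4.03 for Cd36 and from −2.37 to −1.78 for Cebpd. The mean levels of Pparg, Cebpa and Fabp4 thus fell in the order de Bruijn flat cultures, unlabelled flat cultures, reaggregates. For Cebpa neither step passed the limma test, for Pparg and Fabp4 only the first did, and flat culture 1 lay inside the reaggregate range for Cebpa and Fabp4.

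Within the reaggregates, IL-3 was compared between 3 libraries with and 3 without it. The means with and without IL-3 were 42.8 and 41.8 RPM for Pparg, 33.7 and 31.9 RPM for Cebpa, and 31.4 and 27.1 RPM for Fabp4. Those of Lpl were 327 and 308 RPM, and those of Cebpb 49.3 and 47.0 RPM. The differences were small beside the spread among reaggregates. The log2 differences of the tested members ran from −0.10 for Cebpd to 0.44 for Adipoq, limma called 0 members and 0% of all tested genes, and 0 members and 68 genes had an unadjusted p under 0.05. Adipoq passed the filter only through reaggregates 2 and 4, which both received IL-3, and next to it the highest log2 difference was 0.22, for Fabp4. This comparison ignored the likeness of consecutive reaggregates. With the consecutive pair as a block limma again called 0 members and 0 of all 16933 tested genes, and 564 genes (3.33%) had an unadjusted p under 0.05.

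For Cd36, Lpl and Fabp4 the reaggregates varied more between consecutive pairs than with IL-3. Pair means of Cd36, for reaggregates 1 and 2, 3 and 4, and 5 and 6, were 7.86, 1.22 and 8.37 RPM, and the highest was 6.86 times the lowest. Those of Lpl were 252, 533 and 168 RPM, a ratio of 3.17. Those of Fabp4 were 23.9, 41.8 and 22.3 RPM, a ratio of 1.88. Reaggregates 3 and 4 were thus lowest for the fatty acid receptor and highest for the lipase and the cytoplasmic carrier. For Pparg the pair means were 37.7, 45.5 and 43.7 RPM, a ratio of 1.21. The log2 differences with IL-3 in the 3 pairs were 0.08, 0.18 and 0.40 for Fabp4 and 0.01, 0.14 and 0.07 for Lpl. They were 0.47, 0.62 and 0.23 for Adipoq near the floor, −0.14, −0.15 and −0.01 for Cebpd, and −0.08, −0.34 and 0.22 for Cd36. Those of Pparg, Cebpa and Cebpb differed in sign between pairs. How many of all genes keep 1 direction over the pairs was not counted. The lowest unadjusted limma p of a tested member was 0.144, without the pair as a block. What sets the pairs apart is not labelled, nor is the passage number of the cells, which the Methods mention.

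The genes whose pattern was most like that of a member were sought over the 10 libraries among 11660 genes, by the root mean square difference of log2(RPM + 0.5) after each gene was centred. For Pparg these were Masp1 (0.220), a protease of the lectin pathway of complement, Snrpn (0.242), an imprinted splicing gene, and Ccnd2 (0.246), which encodes cyclin D2. Masp1 was between 67.6 and 108 RPM in the reaggregates and at 113, 726, 143 and 523 RPM in flat cultures 1 to 4. Each thus shared the high de Bruijn and the low unlabelled flat cultures. Among the members, Cebpa was 0.42 from Pparg, Fabp4 0.64, Cd36 1.06 and Cebpd 1.94. For Cebpa the most like genes were Cdk18 (0.220), Ampd3 (0.239) and Igfbp7 (0.242), and Igfbp7, an insulin-like growth factor binding protein gene, was at 144, 419, 170 and 307 RPM in flat cultures 1 to 4. For Lpl they were Tpm1 (0.202), a tropomyosin gene, Polr3e (0.271) and Fermt2 (0.272), and Tpm1 followed the pairs of reaggregates, with 336 and 320, 658 and 673, and 194 and 214 RPM. Lpl and Cd36 were 2.09 apart.

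Beside the members, 149 genes in 12 lists were followed, of which 3 (Lep, Ucp1 and Cox8b) have no entry in the deposited table. In the lists together, 121 genes were tested, 21 were called higher in reaggregates (17.4%, beside 7.32% of all tested genes) and 9 lower (7.44%, beside 6.53%). Of the pro-adipogenic transcription factors and co-regulators, 20 were tested, 6 were called higher and 1 lower, and their median log2 fold change was 0.68. With the unlabelled flat cultures alone 3 were called higher and 1 lower, beside 3.70% and 6.17% of all tested genes. With averaged pairs 2 (Zfp423 and Ebf1) were called higher and 1 lower, beside 1.90% and 2.53%. Egr2, Rxra, Ppargc1a and Ppargc1b lost their calls in both. With averaged pairs their log2 fold changes were 1.96, 1.01, 1.93 and 1.52, beside 1.94, 1.01, 1.93 and 1.52 before averaging, and with the unlabelled flat cultures alone they were 1.49, 0.97, 1.31 and 0.92. The gene called lower was Klf15, at 0 to 0.106 RPM in reaggregates and 0.921, 1.07, 0.838 and 1.34 RPM in flat cultures 1 to 4, which passed the filter only through the flat cultures, so its call is no support for a difference. Zfp423, which commits precursors to the fat lineage, averaged 91.0 RPM in reaggregates with an SD of 15.2 (n = 6) and 18.1 RPM in flat cultures with an SD of 6.02 (n = 4), and its log2 fold change was 2.34. Ebf1, an early B cell factor that also promotes fat cell formation, averaged 156 and 64.1 RPM (log2 fold change 1.32). Unlike Pparg, both lay at similar levels in both kinds of flat culture and were also called with the unlabelled flat cultures alone. Ppargc1a, a coactivator of PPARγ, averaged 3.02 and 0.440 RPM (1.93). Klf4, with the highest mean RPM of this list, averaged 239 and 150 RPM and was not called.

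Of the anti-adipogenic regulators, 18 were tested, 4 were called higher and 1 lower, with a median log2 fold change of 0.53. Against the de Bruijn flat cultures alone 4 were called higher and 4 lower, beside 15.2% and 10.5% of all tested genes. With the unlabelled flat cultures alone, and with averaged pairs, 3 were called higher and 1 lower. Of all tested genes, 3.70% were higher and 6.17% lower in the former, and 1.90% and 2.53% in the latter. Zfp521, which restrains fat cell commitment and inhibits Ebf1, averaged 221 RPM in reaggregates with an SD of 27.5 (n = 6) and 38.7 RPM in flat cultures with an SD of 26.3 (n = 4), for a log2 fold change of 2.71, and Sox9, a cartilage factor that represses Cebpb and Cebpd, averaged 193 and 68.9 RPM (1.56). Trib3, a pseudokinase, fell, from 26.1 RPM in flat cultures to 6.13 RPM (−1.91). All 3 were called with the unlabelled flat cultures alone as well. Factors listed as promoting and as restraining fat cell formation were thus both called higher, together with Cebpb among the members. The corepressor gene Ncor1, with the highest mean RPM of the list, averaged 216 and 147 RPM and was not called with all flat cultures. It was called against the de Bruijn flat cultures alone (1.07, limma adjusted p = 0.00159) and not against the unlabelled ones (0.20). Wnt10a was at 0 in all libraries.

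Downstream genes were mixed. Of 18 lipid droplet and triglyceride genes tested, 2 were called higher and 0 lower (median log2 fold change −0.01). With the de Bruijn flat cultures alone 2 were higher and 5 lower (median −0.22), with the unlabelled flat cultures alone 1 was higher and 0 lower (0.27), and with averaged pairs 1 was higher and 0 lower (0.00). Of all tested genes, 15.2%, 3.70% and 1.90% were called higher in these comparisons and 10.5%, 6.17% and 2.53% lower. The 18 include Plin1 and Cidec, which passed the filter only through the de Bruijn flat cultures. Any call of these genes there is thus no support for a difference. Lpin1, a phosphatidate phosphatase of triglyceride synthesis, averaged 71.1 and 17.9 RPM (2.04), and Plin2, a droplet coat protein gene found in many cell types, averaged 306 and 194 RPM and was not called. Cidea and Pck1 were at 0 in all libraries. Of 11 fatty acid and glucose uptake genes tested, 2 were called higher and 3 lower (median 0.20). Angptl4, which encodes an inhibitor of lipoprotein lipase and is a known PPAR target, averaged 453 RPM in reaggregates with an SD of 21.5 (n = 6) and 164 RPM in flat cultures with an SD of 28.8 (n = 4), which is a log2 fold change of 1.48. Angptl4 was thus higher in every reaggregate, whereas Lpl overlapped between the groups. Slc27a1, a fatty acid transporter gene, averaged 31.1 and 7.31 RPM (2.11), and Cav1, the caveolin gene, 131 and 410 RPM (−1.93), a call lost with the unlabelled flat cultures alone (−1.88, limma adjusted p = 0.10) and with averaged pairs (−1.92, limma adjusted p = 0.0689) at nearly the same fold.

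Of 8 fatty acid synthesis genes tested, 0 were called higher and 1 lower in limma (median 0.38). The gene called lower was Me1, the malic enzyme that supplies NADPH, at 44.6 and 123 RPM (−1.47). Scd2, a desaturase gene, averaged 1276 and 797 RPM and was not called with all flat cultures. It was called against the de Bruijn flat cultures alone (2.14, limma adjusted p = 0.000658). There 3 of the list were higher and 2 lower, beside 15.2% and 10.5% of all tested genes. Against the unlabelled ones Scd2 was at 0.03, with 0 of the list higher and 1 lower (median −0.02), beside 3.70% and 6.17%. Of 6 adipokine genes tested, 0 were called higher and 1, Adm, lower in limma (median 0.04). Adm, which encodes adrenomedullin, averaged 10.1 and 72.1 RPM (−2.54), with −3.41 against the de Bruijn flat cultures alone and −1.68 against the unlabelled ones. It was also called higher in the de Bruijn than in the unlabelled flat cultures (log2 difference 1.73, limma adjusted p = 0.0303). Nampt, with the highest mean RPM of the list, at 64.7 and 42.9 RPM, was not called with all flat cultures. Against the de Bruijn flat cultures alone Nampt was called (1.09, limma adjusted p = 0.00406), and against the unlabelled ones it was not (0.19). Retn was at 0 in all libraries. Of 5 brown and beige fat cell genes tested, limma called 0 (median −0.90), and Tmem26 averaged 15.6 and 26.3 RPM. This list depended on the flat cultures used. Its median was 0.50 against the de Bruijn flat cultures alone (1 higher and 1 lower) and −0.37 against the unlabelled ones (0 higher and 1 lower). The hormone genes that define mature fat cells, Adipoq among the members and Retn in this list, were thus at or near 0 in both culture forms.

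Precursor markers were compared because the members mark the path from precursor to fat cell. Of 10 tested, 3 were called higher and 0 lower (median log2 fold change 0.87). The list depended on the flat cultures used, with 6 higher and 2 lower (median 1.55) against the de Bruijn flat cultures alone and 3 higher and 1 lower, Ly6a (median 0.19), against the unlabelled flat cultures alone. Of all tested genes, 15.2% were higher and 10.5% lower against the former, and 3.70% and 6.17% against the latter. The 3 called higher with all flat cultures were the growth factor receptor genes Pdgfra, at 363 and 123 RPM (1.58), and Pdgfrb, at 738 and 239 RPM (1.74), and the tissue factor gene F3, at 108 and 17.1 RPM (2.41). All 3 were called with the unlabelled flat cultures alone as well. Cxcl12, a chemokine gene with the highest mean RPM of the list, held 125, 4560, 662 and 3990 RPM in flat cultures 1 to 4. It was not called with all flat cultures, and its log2 fold change was −2.03 against the de Bruijn flat cultures alone (limma adjusted p = 0.0140) and 1.85 against the unlabelled ones (limma adjusted p = 0.115). In the source comparison 1 of 10 precursor markers tested, Icam1, was called higher in the de Bruijn flat cultures (1.82% of all tested genes) and 2 were called lower (3.87%). Ly6a, the gene of the stem cell antigen Sca-1, held 2000, 13.4, 1260 and 15.3 RPM in flat cultures 1 to 4 (log2 difference of de Bruijn over unlabelled −6.74). Cd34 held 72.6, 0, 26.5 and 0 RPM and was called lower, and Rbp4, a retinol carrier gene of the adipokine list, 0.345, 38.5, 1.80 and 42.2 RPM (4.87). In the flat cultures in which Pparg, Fabp4 and Cd36 were high, Ly6a and Cd34 were thus low or at 0, while Cxcl12 had a log2 difference of 3.89 that was not called (limma adjusted p = 0.0610) and Pdgfra one of 0.01.

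**Figure D3:**
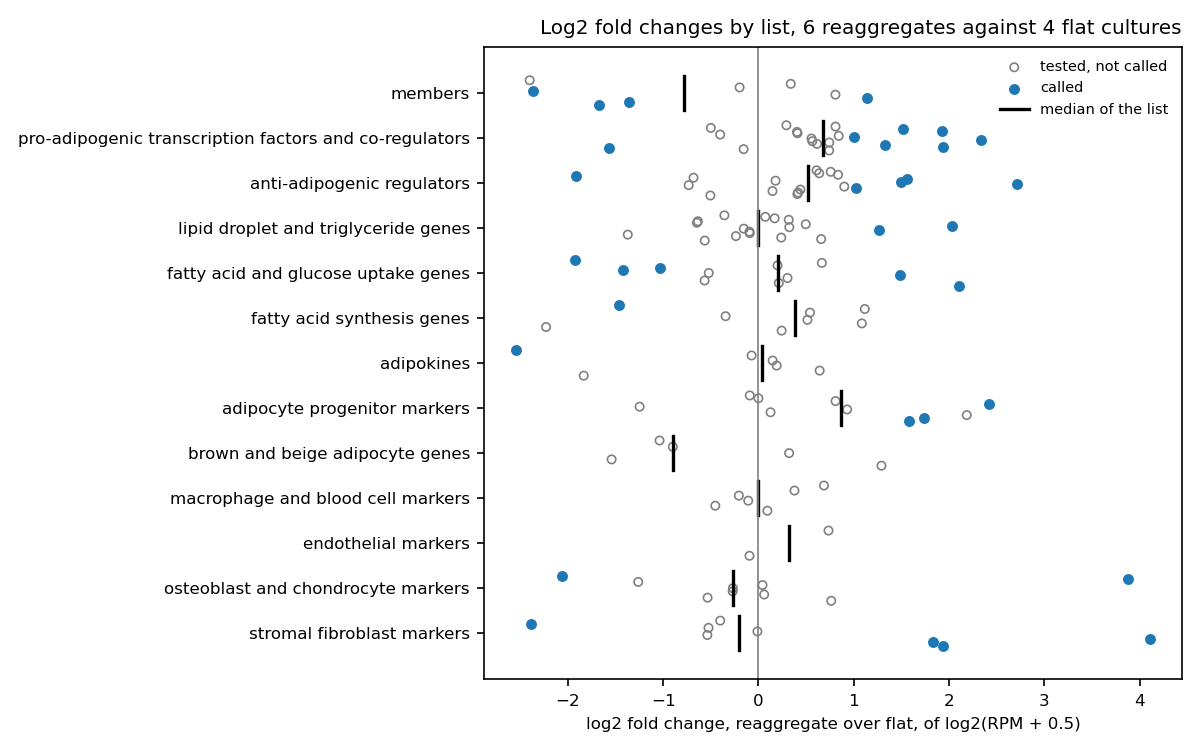
Log2 fold change (horizontal axis, reaggregates over flat cultures on log2(RPM + 0.5)) of each tested gene, by list, with 6 reaggregates and 4 flat cultures. Filled points were called, open points were not, and vertical lines are list medians, among them −0.78 for the members and 0.68 for the pro-adipogenic factors.

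Markers of the cell types that an OP9 culture could hold were summed per library. Of 8 fat cell markers (Adipoq, Plin1, Cidec, Lep, Retn, Slc2a4, Fabp4 and Cfd), 7 were in the table. Plin1 and Cidec passed 0.5 RPM only in the de Bruijn flat cultures, so their values are given here without a test. Both were among the 18 lipid droplet and triglyceride genes tested and enter the counts of that list. Fabp4 had the highest mean RPM. Their sum ran from 19.5 to 45.6 RPM in reaggregates, with a median of 25.6 RPM, and was 31.3, 440, 47.4 and 715 RPM in flat cultures 1 to 4. Without Fabp4 it was between 0.424 and 1.15 RPM in reaggregates and 0, 4.89, 0.240 and 4.49 RPM in the flat cultures. Plin1, the coat protein gene of large droplets, held 0, 1.43, 0 and 1.21 RPM in flat cultures 1 to 4, and Cidec, a droplet fusion gene, 0, 2.98, 0 and 3.16 RPM. In the de Bruijn flat cultures Fabp4 was thus high and Plin1 and Cidec lay between 1.21 and 3.16 RPM. Adipoq, Cfd and Retn were at or near 0 there.

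Fabp4 and Cd36 are also macrophage and endothelial genes, so markers of those cells were measured. The 9 macrophage and blood cell markers summed to between 12.4 and 31.5 RPM in reaggregates and to 51.4, 16.9, 38.1 and 13.7 RPM in flat cultures 1 to 4. Without Lyz2 the sums were between 4.36 and 11.4 RPM in reaggregates and 2.85, 9.98, 10.1 and 5.06 RPM in flat cultures 1 to 4, with no order by source. Ptprc and Adgre1 were at 0 in all libraries, Lyz2 had the highest mean RPM of the list (17.4 and 23.0 RPM), and limma called 0 of 6 tested between reaggregates and flat cultures (median log2 fold change −0.01). Lyz2 was lower in the de Bruijn flat cultures, by a log2 difference of −2.18. The 7 endothelial markers summed to between 0.212 and 2.62 RPM in reaggregates and to between 0.116 and 0.723 RPM in flat cultures. Pecam1, with the highest mean RPM among them, averaged 0.325 and 0.358 RPM, with its highest value, 0.716 RPM, in flat culture 2, and limma called 0 of 2 tested (median 0.32). The part of such cells in the values of Fabp4 and Cd36 was not tested.

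Bone, cartilage and fibroblast markers were measured as well. Of 9 osteoblast and chondrocyte markers tested, 1 was called higher, Dmp1 (11.5 and 0.569 RPM; 3.87), and 1 lower, Col2a1 (252 and 1075 RPM; −2.06), with a median log2 fold change of −0.27. Their sum ran from 1669 to 5755 RPM in reaggregates and was 6539, 8517, 4885 and 14916 RPM in flat cultures 1 to 4. Spp1, the osteopontin gene, had the highest mean RPM of the list (3178 and 7583 RPM, not called with all flat cultures). It was called against the de Bruijn flat cultures alone (−1.88, limma adjusted p = 0.0199) and not against the unlabelled ones (−0.64). Acan was at 0 in all libraries. Of 8 stromal fibroblast markers tested, 3 were called higher and 1 lower (median −0.21), and their sum ran from 20504 to 26030 RPM in reaggregates and was 15259, 14349, 20172 and 12901 RPM in flat cultures 1 to 4. Those called higher were Col1a1 (6632 and 2147 RPM), Col1a2 (9630 and 3228 RPM), with the highest mean RPM of the list, and Col3a1 (2525 and 344 RPM), and S100a4 (646 and 3320 RPM) was lower. With averaged pairs the 3 collagen genes kept their log2 fold changes of 1.93, 1.83 and 4.11 and lost their calls (limma adjusted p = 0.0845, 0.0944 and 0.0689), and with the unlabelled flat cultures alone Col1a2 was not called (1.05, limma adjusted p = 0.0767). Col3a1 was also lower in the de Bruijn flat cultures (log2 difference −4.02), opposite to Pparg and Fabp4, and the part of other cell types in the members' values was not tested.

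Promoters are shown for the factor genes Pparg, Cebpa and Cebpb and for Cd36, because C/EBP factors and PPARγ act on each other's genes and on fatty acid genes and because these members differed between flat cultures or culture forms. RefSeq sequences of assembly GRCm38.p6, 250 bases before to 50 after a start, were matched for 7 of the 10 members, with 9 promoters in all, and none was matched for Cebpd, Fabp4 and Lpl. The motifs were TTNNGCAA with its reverse complement TTGCNNAA for C/EBP factors and AGGTCA with its reverse complement TGACCT, a half-site of nuclear receptors such as PPARγ. A stretch can match both forms of the C/EBP motif, and 10.8% of all 32851 promoters of this length hold it, while 16.3% hold the half-site. Capitals mark the matches. A match is a description and not a binding site.
Pparg start 1, chr6:115360894-115361193, GRCm38.p6, plus strand: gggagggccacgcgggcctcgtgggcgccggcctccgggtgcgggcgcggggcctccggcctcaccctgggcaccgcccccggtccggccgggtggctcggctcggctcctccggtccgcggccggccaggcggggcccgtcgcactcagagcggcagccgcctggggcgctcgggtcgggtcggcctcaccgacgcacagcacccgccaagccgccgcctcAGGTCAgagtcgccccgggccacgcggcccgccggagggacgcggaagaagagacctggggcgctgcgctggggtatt
Pparg start 2, chr6:115362099-115362398, GRCm38.p6, plus strand: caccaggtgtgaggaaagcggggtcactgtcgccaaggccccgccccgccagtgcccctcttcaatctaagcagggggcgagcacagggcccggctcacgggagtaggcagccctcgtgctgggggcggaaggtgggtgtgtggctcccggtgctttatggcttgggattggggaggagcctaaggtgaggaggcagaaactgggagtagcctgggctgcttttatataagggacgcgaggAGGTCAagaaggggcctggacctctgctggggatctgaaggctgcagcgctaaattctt
Pparg start 3, chr6:115421816-115422115, GRCm38.p6, plus strand: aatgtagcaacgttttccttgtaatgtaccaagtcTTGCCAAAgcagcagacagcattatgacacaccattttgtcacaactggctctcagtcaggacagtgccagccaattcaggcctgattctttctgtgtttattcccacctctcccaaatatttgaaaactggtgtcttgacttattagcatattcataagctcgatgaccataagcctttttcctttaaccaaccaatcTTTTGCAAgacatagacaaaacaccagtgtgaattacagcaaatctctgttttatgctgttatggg
Cebpa, chr7:35119043-35119342, GRCm38.p6, plus strand: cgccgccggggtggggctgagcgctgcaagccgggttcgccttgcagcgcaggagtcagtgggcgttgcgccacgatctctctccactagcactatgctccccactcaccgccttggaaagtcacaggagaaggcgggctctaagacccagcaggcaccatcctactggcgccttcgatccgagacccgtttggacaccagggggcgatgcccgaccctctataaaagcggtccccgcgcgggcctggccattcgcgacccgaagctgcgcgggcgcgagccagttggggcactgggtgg
Cebpb, chr2:167688665-167688964, GRCm38.p6, plus strand: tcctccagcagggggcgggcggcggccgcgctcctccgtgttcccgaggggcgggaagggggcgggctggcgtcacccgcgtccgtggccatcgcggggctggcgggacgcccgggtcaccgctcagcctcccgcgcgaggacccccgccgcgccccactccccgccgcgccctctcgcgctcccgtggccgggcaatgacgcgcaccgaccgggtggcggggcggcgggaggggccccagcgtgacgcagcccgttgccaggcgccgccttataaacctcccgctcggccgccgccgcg
Cd36, chr5:17835847-17836146, GRCm38.p6, minus strand: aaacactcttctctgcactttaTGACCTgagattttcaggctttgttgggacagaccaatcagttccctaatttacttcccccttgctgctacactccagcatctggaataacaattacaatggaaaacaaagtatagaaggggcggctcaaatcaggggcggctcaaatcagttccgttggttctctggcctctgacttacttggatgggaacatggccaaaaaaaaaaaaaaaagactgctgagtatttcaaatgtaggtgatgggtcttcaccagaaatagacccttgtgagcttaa
Of the 3 Pparg starts, the first 2 listed hold 1 half-site each and the other holds 2 C/EBP matches. The Cd36 promoter holds 1 half-site, and neither motif occurs in these windows of Cebpa and Cebpb. The windows of Adipoq, Cfd and Dlk1, which are not shown, hold neither motif either. The deposited table gives 1 value per gene, so the level of Pparg RNA from each start was not measured. In NCBI37/mm9, the assembly of the deposited table, the plus strand carries Pparg (ENSMUSG00000000440) at chr6:115311239-115440419, Cebpa (ENSMUSG00000034957) at chr7:35904312-35906945, Cebpb (ENSMUSG00000056501) at chr2:167514415-167515918, Cebpd (ENSMUSG00000071637) at chr16:15887379-15888559, Lpl (ENSMUSG00000015568) at chr8:71404390-71431347, Adipoq (ENSMUSG00000022878) at chr16:23146609-23158101, Cfd (ENSMUSG00000061780) at chr10:79353598-79355401 and Dlk1 (ENSMUSG00000040856) at chr12:110691033-110701546. The minus strand carries Fabp4 (ENSMUSG00000062515) at chr3:10204347-10208576 and Cd36 (ENSMUSG00000002944) at chr5:17287508-17394777.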

How the data were processed

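RNA from 10 OP9 cultures was sequenced. The authors aligned reads to NCBI37/mm9 with TopHat 1.2.0, assigned them to Ensembl genes, shared out multiply mapped reads between genes in proportion to unique reads, and deposited RPM, reads per gene scaled to 1e6 reads on genes. Log2 fold changes and adjusted p-values of a DESeq comparison were deposited beside them and were not used. Groups, IL-3 and source came from the labels. In each library 1 read was taken to be worth the most frequent RPM value other than 0, which gave its depth and a floor of 3 reads. Of values up to 10 RPM, only 53.5% to 55.6% equalled a whole number of reads within 1%, so no count test was run.

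Genes above 0.5 RPM in at least 1 library were compared on log2(RPM + 0.5), a scale that understates changes of low genes, with limma 3.58.1 in R 4.3.3, without covariates and with a mean-variance trend. A call meant a fold of at least 2 with a p of at most 0.05 after Benjamini-Hochberg adjustment over all genes tested. Comparisons were reaggregates against flat cultures (all 10 libraries), IL-3 within reaggregates and source within flat cultures. Single values were tested by exact two-sided permutation of the difference of mean RPM, which treats consecutive reaggregates as independent. The model was tested on simulated data, where it recovered fewer of the changed genes in the source comparison than in the others. Tables and figures were made with Python 3.11.15, numpy 2.4.6, pandas 2.3.3 and matplotlib 3.10.9.

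Named genes are the 10 members and, from each list, the gene with the highest mean RPM and up to 3 called genes with the largest absolute log2 fold change whose groups do not overlap and whose higher group mean is at least 2 RPM. Up to 3 list genes with the largest called source difference, and the 3 genes of at least 5 RPM on average most like Pparg, Cebpa and Lpl, were added. Plin1, Cidec, Egr2, Rxra, Ppargc1b, Klf15, Icam1 and genes at 0 were named outside this rule, after their values were seen. Another adipokine gene, in none of the counts, was not analysed here. The members and lists were chosen with earlier results of these data known. Alternatives comprised other pseudocounts, filters and scalings, no trend, the replicate number as a block, averaged consecutive reaggregates, subsets by source and IL-3, and leaving out each library.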

Additional observations from a re-analysis of the deposited data

Results flagged for a closer look

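In 116 groups of values examined (6 reaggregates or 4 flat cultures for each named gene), a library stood far from the others in its group in 2. For Dlk1, flat culture 2 held 0.358 RPM where the other flat cultures held 0, which is about 3 reads. For Dmp1, flat culture 3 held 2.16 RPM and the next highest flat culture 0.115 RPM. Chance marks about 1 in 20 groups in this way, or 5.8 of 116.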

How the results depend on the processing

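Each count was recomputed under 24 alternatives for reaggregates against flat cultures (16 for the exact test), 12 for IL-3 and 10 for source. The cause of the changes below was not tested, apart from the smaller number of libraries in some. The 1 member called higher in reaggregates became 0 with averaged consecutive reaggregates, 0 with only unlabelled flat cultures, 0 with only IL-3 reaggregates and 2 with only de Bruijn flat cultures, and ran from 1 to 2 when single libraries were left out, with 2 without flat culture 3. Of all 16933 tested genes, 1239 were called higher with all libraries, 277 with only IL-3 reaggregates and 2121 without flat culture 3. The 3 members called lower became 0 without a filter on low values, with averaged pairs, with only unlabelled flat cultures, with only reaggregates without IL-3, with only those with IL-3 and without reaggregates 5 and 6. Over all tested genes the lower calls, 1106 with all libraries, were then 923 (of 26888), 429, 1044, 474, 360 and 1169, in that order. Without the filter the log2 fold changes of Pparg, Cebpa and Fabp4 stayed at −1.67, −1.36 and −2.37. Leaving out single libraries gave from 0 to 4 members called lower. There were 0 without flat culture 2 or flat culture 4 (1109 and 815 of all genes). There was 1 when any 1 of reaggregates 1 to 5 was left out (985, 995, 974, 977 and 1074 of all genes, in that order). The 21 list genes called higher became 12 with averaged pairs and 34 with only de Bruijn flat cultures. They became 12 with only reaggregates without IL-3 and 12 with only those with IL-3. Over all tested genes the higher calls, 1239 with all libraries, were then 321, 2579, 345 and 277, in that order. The 9 list genes called lower became 23 with only de Bruijn flat cultures, where the lower calls over all tested genes rose from 1106 to 1775.

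Of the 8 tested members, the 4 with an exact permutation p of at most 0.05 (40.4% of all tested genes) became 1 with only unlabelled flat cultures (26.6%), 1 with only reaggregates without IL-3 (9.97%), 1 with only those with IL-3 (9.76%), 1 with averaged pairs (10.1%) and 2 without reaggregates 5 and 6 (34.7%). The 4 members called between flat culture sources became 5, with Cebpa, under quantile normalization and with all 10 libraries in 1 fit, 1 without a filter and 0 when any flat culture was left out (lowest 0, highest 0), where limma called 0 of all 16933 tested genes too. For IL-3 limma called 0 members in all 12 alternatives. The log2 fold change of Cebpd turned to −0.23 with only unlabelled flat cultures, that of Lpl to 0.18 without reaggregates 5 and 6, and the source differences of Lpl and Adipoq ran from −0.0425 to 0.452 and from −0.0197 to 0.546 when single flat cultures were left out. With the replicate number as a block the log2 fold change was −1.70 for Pparg and 0.18 for Lpl, and Fabp4 lost its call (limma adjusted p = 0.0512). This block leaves reaggregates 5 and 6 without a flat partner. Deviations from the group means correlated by −0.041, −0.213, 0.072 and 0.155 in pairs of like number. A pairing by number was thus not seen, but source and consecutive pairs also enter these deviations, so the check cannot exclude one. Under the filter of a mean of at least 1 RPM, Adipoq was not tested. Depth limits Adipoq, Cfd and Dlk1, which lay near or under 3 reads.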
